A study of Mus musculus with 8 samples.

Results

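Type I interferon stimulated genes are a group of 43 genes whose transcription is driven by interferon alpha and beta. They were looked up by symbol, current or older, on 8 Illumina MouseRef-8 v2.0 arrays of mouse CD4 T cells. Under these symbols 39 members had at least 1 probe, 58 probes in all. A member was measured where a probe was detected, at a detection p under 0.01, on 2 or more arrays, which left 43 probes of 32 members, among 8196 genes measured in the same way. Each member is given by its brightest probe, as a background-corrected and quantile-normalized log2 intensity. Of the 32, 24 were detected on all 8 arrays, 4 on 7 (Cmpk2, Isg20, Mx2 and Rtp4), 3 on 4 (Mx1, Parp9 and Parp12) and 1, Tor3a, on 3. Just outside the filter, Trim25 was detected on 1 array. Ifi44, Ifih1, Ifit1, Nmi, Oas1a and Oas3 were detected on none, and Ddx60, Dtx3l, Isg15 and Xaf1 had no probe under the symbols searched.

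The cells were sorted by flow cytometry from mesenteric lymph nodes of Mir-21 knockout mice (KO, a deletion of the gene of microRNA 21) and of wild-type littermates (WT). One population was high for CD25, the alpha chain of the interleukin 2 receptor that regulatory T cells carry, and the other was high for CD45, with the isoform not given in the sources used here. Each was taken unstimulated or after 30 min with antibodies against CD3 and CD28, which engage the T cell receptor and its costimulator, so that the 8 arrays hold 1 of each combination: stimulated and unstimulated KO CD25High, WT CD25High, KO CD45High and WT CD45High cells. Age, sex, strain, the number of animals behind an array and whether the unstimulated cells were held in culture for the same time are not stated in the labels. Since no combination was repeated, matched combinations served as 4 pairs, and the p-values measure the spread between pairs of arrays, not between mice.

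Type I interferons bind a receptor of 2 chains, Ifnar1 and Ifnar2, whose kinases Jak1 and Tyk2 phosphorylate Stat2. Stat2 and Irf9 act in a complex that binds an element in promoters of the group, in which GAAA repeats lie a few bases apart. The products sense foreign RNA, cut it, block its translation, trap viral particles or feed back on the receptor. Resting lymphocytes keep some of this program on through low constitutive interferon, and regulatory T cells can respond to the same signal.

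The promoter sequences are shown because members that moved together after stimulation, and others that did not pass the test, hold the same element. A search for GAAANNGAAA on both strands (TTTCNNTTTC on the other) in 300 bases around each gene's start (250 before it and 50 after it, RefSeq, GRCm38.p6) found it in 14 of 31 members that have a promoter in that table, or 45.2%, and in 1079 of 27025 genes, or 3.99%. Among the 20 measured members with a promoter it was in 8, which is 40.0%. Overlapping matches are joined in 1 run of capitals, which mark the motif, and each stretch is read 5′ to 3′ along the gene's own strand.
Ifit3, chr19:34583353-34583436, plus strand: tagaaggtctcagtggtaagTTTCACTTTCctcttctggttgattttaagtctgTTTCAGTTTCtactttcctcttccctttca
Rsad2, chr12:26456543-26456592, minus strand: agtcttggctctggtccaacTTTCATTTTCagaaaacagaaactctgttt
Oas1g, chr5:120887614-120887651, minus strand: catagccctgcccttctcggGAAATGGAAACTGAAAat
Trim30, chr7:104465200-104465249, minus strand: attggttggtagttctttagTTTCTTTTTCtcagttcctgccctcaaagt
Stat2, chr10:128270256-128270305, plus strand: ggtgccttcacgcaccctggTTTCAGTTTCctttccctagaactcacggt
Bst2, chr8:71537567-71537622, minus strand: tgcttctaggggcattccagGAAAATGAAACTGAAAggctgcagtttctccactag
In Ifit3 the window holds 2 matches, 112 bases or more before the start, and in Oas1g 2 overlapping matches end 2 bases before it. Ifit3, Rsad2, Oas1g and Trim30 passed the test after stimulation, and Stat2 and Bst2 did not. Ddx58 and Eif2ak2 also hold a match and passed, and are not shown because no match lay wholly before the start. Cmpk2, Ifit2, Lgals3bp and Sp100 passed with no match in the 300 bases searched. A match is a stretch of letters, not evidence of a bound factor, and motif and response were not compared further.

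The deleted microRNA is shown with its seed, bases 2 to 8, in capitals (RefSeq, GRCm38.p6, chr11:86584120-86584141, minus strand).
mmu-miR-21a-5p: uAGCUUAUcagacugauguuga
The arrays measure messenger RNA and hold no value for the microRNA itself.

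The sort was visible in Foxp3, the transcription factor of regulatory T cells, which stood at 11.10 to 11.81 on the CD25High arrays and at 5.47 to 6.25 on the CD45High arrays (log2). Between 9208 and 10477 probes per array were detected, each with a median of 38 to 40 beads. Precision is limited by how few arrays there are. The array of stimulated KO CD25High cells stood apart: its median correlation with the others was 0.888, against 0.938 to 0.965 for the other 7, and it had the fewest detected probes. The medians of the genotype results are given with and without it. So is the median difference between the stimulation responses of the 2 populations.

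The median of the 32 measured members was 6.69, 5.81, 6.67 and 6.78 (log2) on the stimulated arrays of KO CD25High, WT CD25High, KO CD45High and WT CD45High cells, against 7.25, 7.60, 7.56 and 7.90 on the unstimulated arrays in the same order. Every stimulated array lay below every unstimulated one. The median of all genes stayed between 7.01 and 7.11. WT CD25High stimulated cells gave the lowest value for 15 members, and WT CD45High unstimulated cells the highest for 14.

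**Figure D1:**
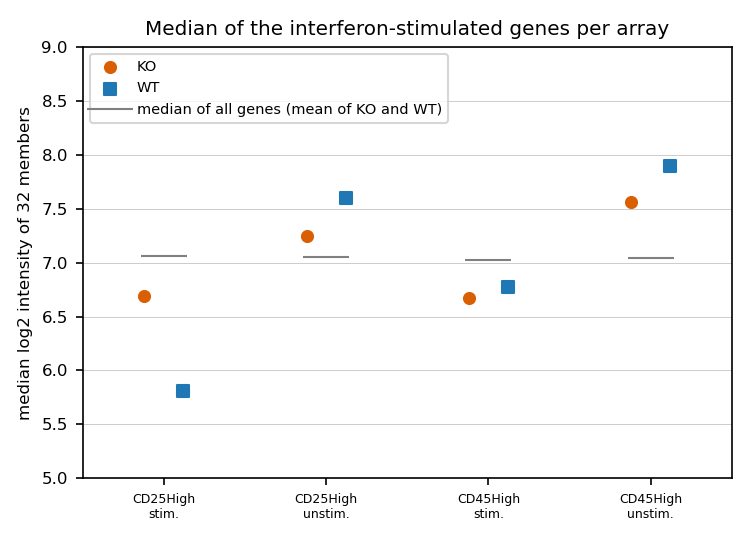
Median log2 intensity of the 32 measured members on each of the 8 arrays (circles KO, squares WT; columns are sorted population and stimulation state; grey bars, median of all 8196 genes). The stimulated arrays lie between 5.81 and 6.78 and the unstimulated ones between 7.25 and 7.90.

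After CD3/CD28 stimulation 17 of the 32 measured members fell and 0 rose (limma, adjusted p under 0.05 over all 11047 probes), while 8.41% of all genes fell and 8.67% rose. A probe that passed the filter through the group where it is high is bound to differ, so the 24 members detected on all 8 arrays are the count to read: 14 of them fell, against 9.2% of the 6197 genes detected on all arrays. The members that fell cover antiviral effectors, RNA sensors and a negative regulator of the receptor: Rsad2, Ifit2, Ifit3, Mx1, Mx2, Oas2, Oas1g, Eif2ak2, Cmpk2, Ifi27, Ddx58, Dhx58, Usp18, Trim30, Lgals3bp, Sp100 and Phf11. The median difference of the 24 was -0.93 (log2), against 0.03 over the genes detected on all arrays. Over all 32 measured members 31 had a mean difference below 0, against 48.5% of genes, and 12 were at least 1.5-fold lower in every pair, against 2.9%. The arrays did not overlap, with each stimulated value below each unstimulated one, for 15 members, against 9.97% of genes, and for 13 of the 24 detected on all arrays, against 11.3%.

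Values in the next paragraphs are log2 intensities in the order KO CD25High, WT CD25High, KO CD45High and WT CD45High, and each difference is the mean over 4 pairs, stimulated minus unstimulated, on the log2 scale, with limma's SE and adjusted p. Levels of different probes are not on a common scale and are not compared.

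Effectors that act on viral RNA and its products gave the largest falls with Phf11. Rsad2 (viperin, an enzyme that makes a chain-terminating nucleotide) stood at 6.83, 5.13, 6.48 and 6.93 in stimulated cells, against 7.42, 8.07, 7.99 and 8.56 in unstimulated cells. Its difference was -1.67 (SE 0.35, adjusted p = 0.0271), which is 3.17-fold lower. Each stimulated array lay below each unstimulated one, with the lowest value in WT CD25High cells and the smallest step in KO CD25High cells. Cmpk2, a nucleotide kinase gene that lies beside Rsad2, stood at 6.19, 4.61, 5.50 and 6.02 in stimulated cells, against 6.63, 7.20, 7.22 and 7.91 in unstimulated cells. The WT CD25High stimulated array did not detect it, and the difference was -1.66 (SE 0.32, adjusted p = 0.0231).

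Ifit3, a tetratricopeptide protein that helps its family hold viral RNA away from ribosomes, stood at 8.46, 6.97, 8.55 and 8.91 in stimulated cells, against 9.32, 10.04, 9.92 and 10.44 in unstimulated cells. Its difference was -1.71 (SE 0.34, adjusted p = 0.0245), and its second probe gave -1.60 (SE 0.18). Ifit2, of the same family, stood at 7.72, 6.74, 8.56 and 8.46 in stimulated cells, against 8.97, 8.71, 9.22 and 9.47 in unstimulated cells, a difference of -1.23 (SE 0.22, adjusted p = 0.0193). In both genes no stimulated array reached an unstimulated one, and the fall in WT CD25High cells was the largest of the 4.

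Oas2 and Oas1g are oligoadenylate synthetases, which switch on the RNA-cutting enzyme RNase L when they meet double-stranded RNA. Oas2 stood at 6.89, 5.24, 7.21 and 7.69 in stimulated cells, against 7.74, 8.17, 9.47 and 9.41 in unstimulated cells. Its difference was -1.94 (SE 0.32, adjusted p = 0.0154), a 3.84-fold fall without overlap. Its levels also differed between the sorted populations, as described further down. Oas1g stood at 6.27, 5.54, 5.38 and 5.79 in stimulated cells, against 7.01, 7.33, 6.93 and 6.85 in unstimulated cells, a difference of -1.28 (SE 0.20, adjusted p = 0.0137), again without overlap. Oas1g has close relatives in the same cluster of genes, and its probes were not checked for matches to them.

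Mx1 and Mx2 are dynamin-like GTPases that trap incoming viral particles. Mx1 stood at 4.24, 4.28, 4.28 and 4.57 in stimulated cells, against 5.16, 5.71, 5.17 and 5.64 in unstimulated cells. It was detected on each unstimulated array and on no stimulated one, so its fall is a bound: at least 1.46-fold lower, with limma's adjusted p at 0.00951. Mx2 stood at 6.49, 4.72, 5.16 and 5.24 in stimulated cells, against 6.59, 7.03, 6.45 and 6.93 in unstimulated cells, with no detection in WT CD25High stimulated cells, and its difference was -1.35 (SE 0.34, adjusted p = 0.0418). In KO CD25High cells Mx2 differed by only -0.10, and that array's value overlapped the unstimulated range.

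Eif2ak2, the kinase known as PKR that stops translation initiation when it binds double-stranded RNA, stood at 7.87, 7.47, 7.01 and 7.29 in stimulated cells, against 8.87, 9.05, 8.19 and 8.50 in unstimulated cells. The difference, -1.24 (SE 0.14, adjusted p = 0.00761), was past 1.5-fold in each of the 4 pairs, with no overlap between the groups. Ifi27, a small membrane protein, stood at 11.48, 10.56, 11.10 and 11.03 in stimulated cells, against 12.02, 11.94, 11.69 and 11.87 in unstimulated cells, a difference of -0.84 (SE 0.17, adjusted p = 0.0262). The symbol of that probe is also an older name of the neighbouring gene Ifi27l2a, while 2 further probes under another older name of Ifi27 gave -0.88 and -0.74.

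The ISG15 system attaches and removes a ubiquitin-like tag and feeds back on the receptor. Usp18, the protease that removes the tag and also holds back signalling at Ifnar2, stood at 9.38, 8.94, 8.81 and 9.10 in stimulated cells, against 10.01, 10.66, 10.07 and 10.35 in unstimulated cells. Its difference was -1.21 (SE 0.19, adjusted p = 0.0144), and a second, dimmer probe gave -2.27 (SE 0.25). Trim30, a TRIM protein known in mouse as a brake on Toll-like receptor signalling, stood at 8.26, 7.93, 7.87 and 8.26 in stimulated cells, against 8.80, 8.72, 8.64 and 8.90 in unstimulated cells, a difference of -0.68 (SE 0.12, adjusted p = 0.0181). Both genes were lower on each stimulated array than on any unstimulated one, and Trim30 was the more even, from -0.79 to -0.54 over the pairs.

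Among the RNA sensors, Ddx58 (RIG-I, which recognises the ends of viral RNA) stood at 5.41, 5.84, 6.70 and 6.80 in stimulated cells, against 6.73, 7.46, 7.43 and 7.62 in unstimulated cells. The difference was -1.13 (SE 0.18, adjusted p = 0.0149), and the groups overlapped, since unstimulated KO CD25High cells lay below stimulated WT CD45High cells. Dhx58 (LGP2, a relative that tunes RIG-I and Ifih1) stood at 6.87, 5.79, 6.33 and 6.76 in stimulated cells, against 7.93, 8.02, 7.88 and 7.97 in unstimulated cells, a difference of -1.51 (SE 0.21, adjusted p = 0.011) without overlap. Zbp1, a sensor of left-handed nucleic acid, differed by -0.33 (SE 0.15, adjusted p = 0.171) and did not pass.

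Phf11, a PHD finger gene, gave the largest difference of the group. It stood at 6.77, 5.57, 5.38 and 6.15 in stimulated cells, against 8.46, 8.68, 7.74 and 7.89 in unstimulated cells, a difference of -2.22 (SE 0.25, adjusted p = 0.00761), or 4.67-fold lower without overlap. The symbol Phf11 is an older name shared by several genes of 1 cluster in the RefSeq table, so which of them the probe reads is not settled here. Lgals3bp, a secreted binder of galectins, stood at 8.76, 8.04, 8.60 and 8.93 in stimulated cells, against 9.65, 9.64, 9.76 and 9.80 in unstimulated cells, a difference of -1.13 (SE 0.16, adjusted p = 0.0117). Sp100, a protein of nuclear bodies, stood at 6.32, 5.51, 6.91 and 6.58 in stimulated cells, against 6.97, 7.22, 7.29 and 7.77 in unstimulated cells, a difference of -0.98 (SE 0.23, adjusted p = 0.0353). Neither gene's arrays overlapped between the states.

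**Figure D2:**
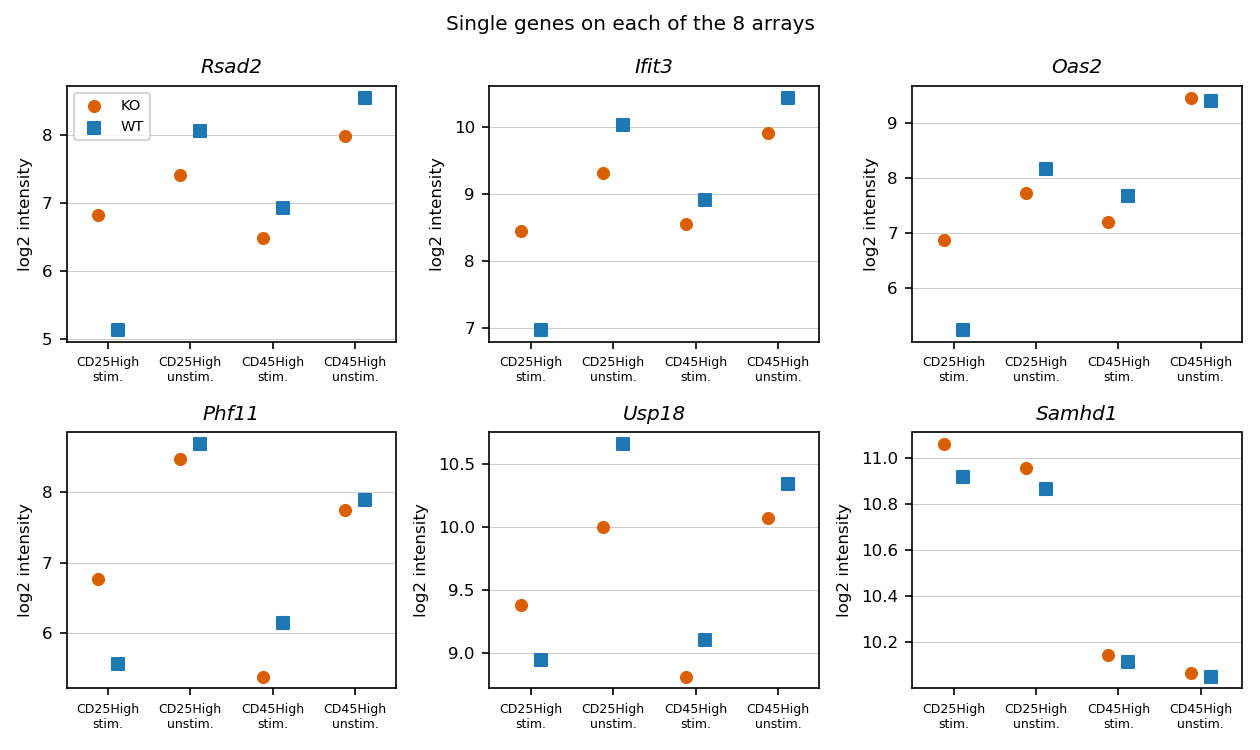
Log2 intensity of 6 members on each of the 8 arrays (circles KO, squares WT; columns are sorted population and stimulation state; each panel has its own axis, which does not start at 0). Rsad2, Ifit3, Oas2, Phf11 and Usp18 lie lower on every stimulated array than in the unstimulated cells, and Samhd1 follows the sorted population instead.

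The 15 measured members that did not pass had fitted differences from -0.87 to 0.07 (log2). Ifi35, the partner of Nmi, was at 5.67, 8.004, 7.10 and 7.77 in stimulated cells, against 7.87, 8.47, 7.58 and 8.11 in unstimulated cells, where the KO CD25High pair alone differed by -2.19 and the other 3 by -0.49 to -0.34. Isg20, an RNA exonuclease, was at 5.75, 5.09, 5.03 and 4.62 in stimulated cells, against 5.72, 6.18, 5.95 and 5.83 in unstimulated cells, with an adjusted p of 0.0565. Oasl1, Oasl2, Bst2 and Rtp4 differed by -0.72 to -0.50, with adjusted p from 0.0919 to 0.169, and each of them was lower in 3 of 4 pairs, the exception being KO CD25High or, for Bst2, WT CD25High cells. Stat2, the subunit that gives the receptor's complex its activating domain, stood at 6.73, 7.32, 6.65 and 6.70 in stimulated cells, against 7.07, 7.13, 6.87 and 7.18 in unstimulated cells, a difference of -0.21 (SE 0.15, adjusted p = 0.349). The PARP proteins Parp9 and Parp12 were detected on no stimulated array, so their differences are bounds: at least 1.09-fold lower for Parp9 (adjusted p = 0.0848) and at least 1.08-fold lower for Parp12 (adjusted p = 0.323). Parp14 differed by -0.12.

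Samhd1, which destroys the nucleotides a retrovirus needs, was the only measured member with a mean above 0. It stood at 11.06, 10.92, 10.14 and 10.12 in stimulated cells, against 10.96, 10.87, 10.07 and 10.05 in unstimulated cells, a difference of 0.07 (SE 0.11, adjusted p = 0.667), and all 4 pairs lay between 0.05 and 0.10. Adar, the enzyme that edits double-stranded RNA, differed by -0.26 (SE 0.13, adjusted p = 0.208) at its brightest probe, and its other probes by -1.11 and -0.20, neither past the threshold. Ifi47 differed by -0.18. Tor3a, detected on 3 unstimulated arrays and no stimulated one, was at least 1.03-fold lower (adjusted p = 0.0816).

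**Figure D3:**
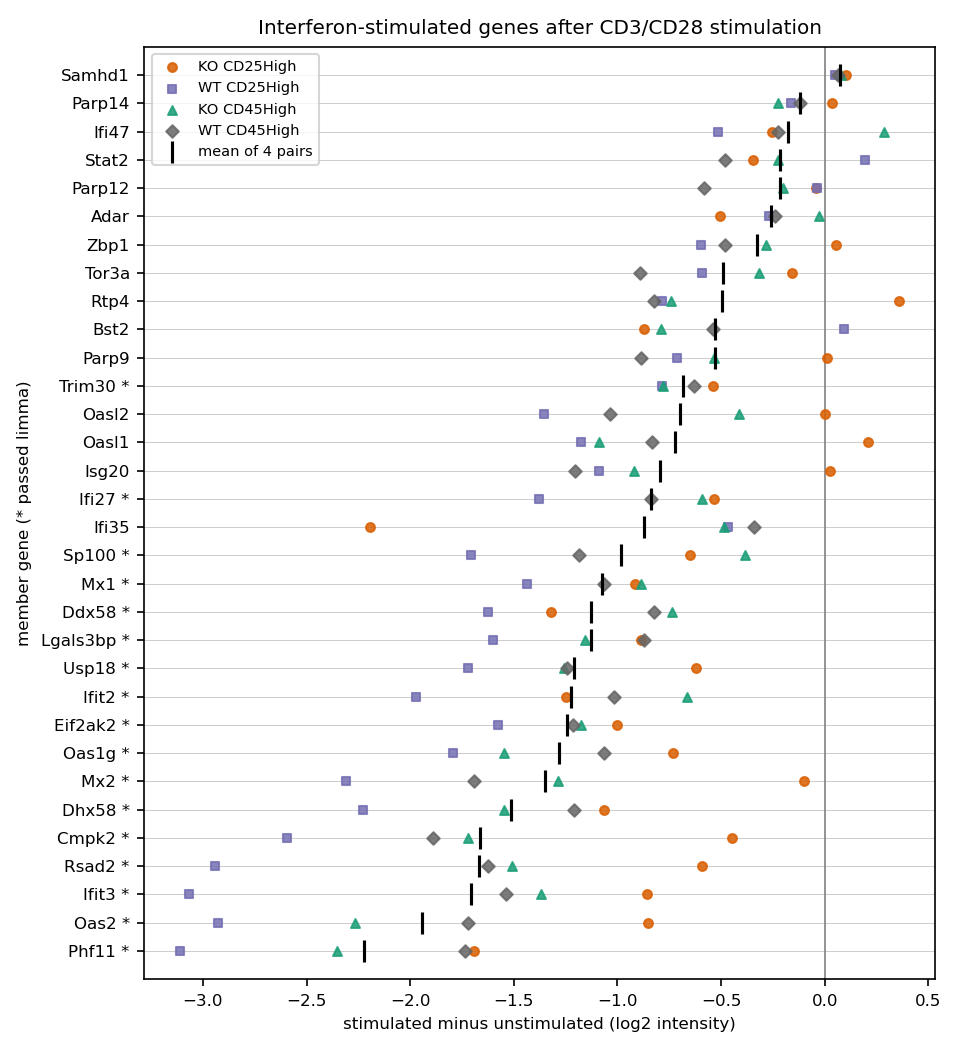
Difference of each measured member between stimulated and unstimulated cells (log2 intensity, horizontal axis) in the 4 pairs (orange circles KO CD25High, violet squares WT CD25High, green triangles KO CD45High, grey diamonds WT CD45High; black bar, mean; asterisk, limma adjusted p under 0.05). Members are ordered by mean, from 0.07 for Samhd1 to -2.22 for Phf11, and WT CD25High cells give most of the largest falls.

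The size of the fall differed between pairs. The median of the measured members was -0.54 in KO CD25High, -1.37 in WT CD25High, -0.76 in KO CD45High and -0.89 in WT CD45High cells. In the same order 15, 24, 20 and 23 of 32 members were lower past 1.5-fold, against 16.5%, 14.9%, 10.6% and 8.61% of genes. For the 24 members detected on all arrays the medians were -0.64, -1.48, -0.76 and -0.85. Over the 6197 genes detected on all arrays they were 0.11, 0.01, 0.01 and 0.003. The shares of the 32 members were above the share of all genes in each pair, least so in the pair that holds the array that stood apart. These 32 include Mx1, Parp9, Parp12 and Tor3a, which were detected on unstimulated arrays alone. Within CD25High cells 9 members fell and 0 rose (limma, 6.48% and 7.96% of genes), namely Phf11, Dhx58, Ifit2, Ddx58, Eif2ak2, Oas1g, Lgals3bp, Mx1 and Usp18. All but Mx1 were among the 24 detected on all arrays, whose median in CD25High cells was -1.18, against 0.06 over genes detected on all arrays. Within CD45High cells 0 of 32 passed limma's test, where 0.293% of genes fell and 0.817% rose, though 22 members had an unadjusted p under 0.05 with a lower value, against 10.9% of genes, and 30 were lower in both pairs, against 36.3% of genes. For the 24 detected on all arrays the median in CD45High cells was -0.78, against 0.01 over genes detected on all arrays. A test of the difference between the 2 responses called 0 members and 0% of genes, with 1 member, Ddx58, at an unadjusted p under 0.05 (-0.69, SE 0.25). A left-out array leaves 1 pair in its population, so the calls of such fits are not given. The median in CD25High cells was then -1.37 without either KO CD25High array and -0.54 without either WT CD25High array. In CD45High cells it was -0.89 without either KO CD45High array and -0.76 without either WT CD45High array. The median difference between responses was 0.04 with all arrays, with 14 of 32 members below 0. It was 0.33, with 6 below 0, without either WT CD25High array. It was -0.46, with 27 below 0, without either KO CD25High array.

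The calls over 4 pairs depended on single arrays, which remove their whole pair when left out. Without either KO CD25High array 25 members were called, and without either WT CD45High array 10, with 2515 and 740 of 11047 probes called in all. Without either WT CD25High array, or either KO CD45High array, limma called 0 members, with 19 and 21 at an unadjusted p under 0.05 and 0 and 80 probes called on the whole array. In each of these fits 31 of 32 measured members stayed below 0, with medians from -1.05 to -0.74.

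T cell and other markers moved with the stimulation. The summed normalized intensity of 6 CD4 T cell genes (linear scale) was 16460 and 11640 in stimulated KO and WT CD25High cells, against 23210 and 22820 in unstimulated ones, while in CD45High cells it was 23290 and 22820, against 24780 and 24860. In bulk RNA, fewer cells of a type and less RNA per cell cannot be told apart. In CD45High cells the members' medians were -0.76 and -0.89 in KO and WT cells. Of 7 markers of plasmacytoid dendritic cells, which make large amounts of type I interferon, 4 were detected on at least 2 arrays and Ccr9, Klk1 and Runx2 on none, and the summed list was 321 to 785 in stimulated cells, against 300 to 419 in unstimulated cells. The myeloid and dendritic list, with 6 of 11 genes detected and Itgam, Itgax and Cd14 on no array, was 303 to 1234 against 870 to 1641. The naive T cell list was 4397 to 9760 against 7381 to 12560, and the B cell list, with 5 of 8 genes detected and Pax5 on no array, 355 to 1482 against 427 to 1408. The CD8 T and NK list, with 4 of 8 genes detected and Cd8a, Ncr1 and Gzmb on no array, was 1002 to 1170 in stimulated cells, against 1333 to 1477 in unstimulated cells. This sum was lower in all 4 pairs and without overlap, but its genes did not all follow. Cd8b1 and Nkg7 were lower in every pair. Klrd1 in KO and WT CD25High cells was higher, 8.05 and 7.96 (log2) stimulated, against 5.94 and 5.98 unstimulated. In CD45High cells Klrd1 was higher in KO and lower in WT cells. Within CD45High cells, KO and WT, the myeloid and dendritic list was 303 and 530 stimulated, against 1331 and 870 unstimulated. The naive list was 9760 and 8971, against 12560 and 11720, and the B cell list 355 and 415, against 620 and 427. The plasmacytoid dendritic list was 321 and 330, against 368 and 300. A plasma cell list was higher after stimulation, 819 and 744, against 619 and 613. So was the sum of 7 regulatory T cell genes, at 2460 and 2470, against 1306 and 1374. Within it Tnfrsf18 stood at 10.39 and 10.59 (log2), against 8.83 and 8.77, and Ctla4, Il2ra and Foxp3 were also higher in both pairs. Gpr83 stood at 7.58 and 7.89, against 9.14 and 9.16, and Nrp1 was also lower in both pairs. Ikzf2 was lower in KO and higher in WT cells. The part of these markers in the members' fall was not tested.

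The signalling genes upstream moved both ways. Of 17 genes of interferon receptors and signalling 16 were measured, of which 3 rose and 4 fell after stimulation, the 4 including the member Usp18. Jak2, a kinase of the interferon gamma receptor, stood at 11.16, 11.40, 10.52 and 10.70 in stimulated cells, against 9.46, 9.51, 9.11 and 9.47 in unstimulated cells, a difference of 1.56 (SE 0.15, adjusted p = 0.00628). Ifngr1, the ligand-binding chain of that receptor, stood at 10.36, 10.71, 9.80 and 9.33 in stimulated cells, against 8.99, 9.17, 8.08 and 7.79 in unstimulated cells, a difference of 1.54 (SE 0.12, adjusted p = 0.00557). Ifngr2, its second chain, rose by 1.01 (SE 0.18). On the type I side, Irf7, the factor that amplifies interferon alpha genes, stood at 6.50, 5.66, 5.89 and 6.13 in stimulated cells, against 6.52, 6.80, 7.11 and 7.21 in unstimulated cells, a difference of -0.86 (SE 0.22, adjusted p = 0.0466). Irf9, which guides the complex to its element, stood at 8.52, 9.19, 9.19 and 9.58 in stimulated cells, against 9.60, 9.92, 9.79 and 10.07 in unstimulated cells, a difference of -0.72 (SE 0.14, adjusted p = 0.0234). Socs3, an inhibitor of cytokine receptors, fell by 1.10 (SE 0.23), and Ifnar2 (-0.37, adjusted p = 0.0835) did not pass limma's test. Of 18 type I interferon genes only Ifna1 and Ifna6 were measured, and they differed by 0.12 and 0.08.

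Genes that respond mainly to interferon gamma did not all follow. Of 17 such genes 13 were measured, of which 4 rose and 3 fell. Cxcl10, a chemokine for T cells, stood at 6.34, 6.31, 5.69 and 6.10 in stimulated cells, against 4.98, 5.45, 4.52 and 4.59 in unstimulated cells, a difference of 1.22 (SE 0.15, adjusted p = 0.00843). It was detected on all stimulated arrays, on both unstimulated CD25High arrays and on neither unstimulated CD45High array, so within CD45High cells the difference is a bound, at least 2.04-fold higher (adjusted p = 0.0535). Cd274, the ligand of the inhibitory receptor PD-1, rose by 0.81 (SE 0.18), and the GTPase gene Gbp3 by 0.62 (SE 0.15). The immunoproteasome subunit Psmb8 stood at 6.69, 7.13, 7.17 and 7.49 in stimulated cells, against 8.17, 8.42, 7.98 and 7.85 in unstimulated cells, a difference of -0.98 (SE 0.20, adjusted p = 0.0266). Of 35 further interferon-stimulated genes outside the 43, 20 were measured, 7 fell and 0 rose, with a median of -0.40. Ly6c1, a surface antigen, fell by 1.52 (SE 0.21), Epsti1 by 1.49 (SE 0.15), the membrane protein Ifitm3 by 1.06 (SE 0.17) and Pml, the organiser of nuclear bodies, by 0.99 (SE 0.13).

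As a check of the stimulation, Crem, a cyclic AMP responsive factor, stood at 9.35, 9.48, 8.73 and 7.98 in stimulated cells, against 5.43, 6.09, 4.88 and 5.51 in unstimulated cells, a difference of 3.40 (SE 0.25, adjusted p = 0.00472). Of 13 early activation genes 12 were measured, 2 rose (Crem and Ier3) and 1 fell (Ier2), while Egr1 differed by -0.05 and Fos by -0.60, neither past the threshold.

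The genotype comparison asked which members differ between KO and WT cells. Over 4 pairs limma called 0 members higher or lower, as it called 0% of genes (lowest adjusted p over all probes 0.493, with 1083 probes at an unadjusted p under 0.05). At that unadjusted level 3 members were lower, against 2.95% of genes. Of the 32 members 17 were above 0 and 15 below, against 37.3% of genes below, with a median of 0.01, against 0.06 for all genes. Ifi35, Ddx58, Mx1 and Stat2 were lower in all 4 pairs and Rtp4 and Samhd1 higher, 4 of 32 against 7.66% of genes and 2 of 32 against 15.1%.

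Ifi35 gave the largest of these. In the order CD25High stimulated, CD25High unstimulated, CD45High stimulated and CD45High unstimulated it stood at 5.67, 7.87, 7.10 and 7.58 in KO cells, against 8.004, 8.47, 7.77 and 8.11 in WT cells. Its mean difference was -1.04 (SE 0.32, adjusted p = 0.493), and the stimulated CD25High pair differed by -2.33, the other 3 by -0.67 to -0.53. In the same order Ddx58 stood at 5.41, 6.73, 6.70 and 7.43 in KO cells, against 5.84, 7.46, 6.80 and 7.62 in WT cells, a difference of -0.36 (SE 0.14, adjusted p = 0.493). Stat2 stood at 6.73, 7.07, 6.65 and 6.87 in KO cells, against 7.32, 7.13, 6.70 and 7.18 in WT cells, a difference of -0.25 (SE 0.13, adjusted p = 0.497). The ranges of KO and WT cells overlapped for all 3.

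Mx1, detected on unstimulated arrays alone, differed by -0.34 (SE 0.13, adjusted p = 0.493). Rtp4, a chaperone of G protein coupled receptors, stood at 5.65, 5.30, 5.06 and 5.80 in KO cells, against 4.50, 5.28, 4.82 and 5.65 in WT cells, a difference of 0.39 (SE 0.20, adjusted p = 0.497). Samhd1 differed by 0.07 (SE 0.10, adjusted p = 0.76), with 0.02 to 0.14 in the 4 pairs.

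In unstimulated cells most measured members had lower values in KO cells, with 0 of 32 called, as 0% of genes were (limma, lowest adjusted p 1). At an unadjusted p under 0.05, 2 members were lower, against 1.18% of genes. Of the 24 members detected on all arrays 21 were below 0, against 42.7% of genes, and 14 were lower in both pairs, against 25.2%. Their median was -0.18, against 0.03 for genes detected on all arrays. Under median scaling in place of quantile normalization, the median of the 32 measured members was -0.05 with 21 below 0, against -0.18 with 27 below 0. The stimulated KO CD25High array enters this comparison only through the spread behind the p-values. Without it the median of the 32 stayed at -0.18, with 27 below 0. For 8 of the 24 both KO arrays were below both WT arrays, against 12% of genes. In the CD25High pair 8 members were lower past 1.5-fold, against 2.43% of genes, and in the CD45High pair 1, against 1.11%.

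The 6 members with the largest differences of the same sign in both unstimulated pairs are given in the order CD25High and CD45High. Oasl2, an oligoadenylate synthetase-like protein, stood at 6.65 and 7.63 in KO cells, against 7.48 and 8.14 in WT cells, a difference of -0.67 (SE 0.19). Cmpk2 stood at 6.63 and 7.22 in KO cells, against 7.20 and 7.91 in WT cells, a difference of -0.62 (SE 0.49). Ifit3 stood at 9.32 and 9.92 in KO cells, against 10.04 and 10.44 in WT cells, a difference of -0.62 (SE 0.43). For Ifit3 both KO arrays were below both WT arrays, and for Oasl2 and Cmpk2 the KO and WT arrays overlapped.

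Rsad2 stood at 7.42 and 7.99 in KO cells, against 8.07 and 8.56 in WT cells, a difference of -0.61 (SE 0.50). Ifi35 stood at 7.87 and 7.58 in KO cells, against 8.47 and 8.11 in WT cells, a difference of -0.57 (SE 0.39). Mx1 stood at 5.16 and 5.17 in KO cells, against 5.71 and 5.64 in WT cells, a difference of -0.51 (SE 0.16). Rsad2, Ifi35 and Mx1 were lower on both KO arrays than on both WT arrays, and none of the 6 passed limma's test (adjusted p of 1 for each).

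In stimulated cells the 2 pairs went different ways. The CD25High pair, which holds the array that stood apart, had a median of 0.59 with 24 of 32 members higher in KO cells, against 66.1% of genes, 16 of them past 1.5-fold, against 17.2% of genes. The CD45High pair had a median of -0.17 with 20 members lower, against 47.6% of genes, 2 of them past 1.5-fold, against 2.29%. Over both pairs limma called 0 members and 0% of genes, with 3 members higher and 1 lower at an unadjusted p under 0.05, against 6.88% and 5.04% of genes. Those 4 were Ifi35 (-1.50, SE 0.39), Rtp4 (0.70, SE 0.25), Sp100 (0.57, SE 0.19) and Isg20 (0.53, SE 0.20), each at an adjusted p of 0.349. Leaving out either stimulated CD45High array, so that the CD25High pair stands alone, gave a median of 0.59, with 8 of 32 members below 0. Without the stimulated KO CD25High array the median was -0.17, with 20 of 32 members below 0, against 0.23 and 8 with it. Under median scaling 518 probes of the whole array and 1 member were called, against 0 of each with quantile normalization.

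The values behind them, in the order CD25High and CD45High, were for Ifi35 5.67 and 7.10 in KO cells, against 8.004 and 7.77 in WT cells. Sp100 stood at 6.32 and 6.91 in KO cells, against 5.51 and 6.58 in WT cells. Isg20 stood at 5.75 and 5.03 in KO cells, against 5.09 and 4.62 in WT cells. The Ifi35 arrays did not overlap between genotypes, and those of Sp100 and Isg20 did.

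Rtp4 stood at 5.65 and 5.06 in KO cells, against 4.50 and 4.82 in WT cells. Ifi27 stood at 11.48 and 11.10 in KO cells, against 10.56 and 11.03 in WT cells, a difference of 0.50 (SE 0.25). Ifit2 stood at 7.72 and 8.56 in KO cells, against 6.74 and 8.46 in WT cells, a difference of 0.54 (SE 0.27). Rtp4 and Ifi27 were higher on both KO arrays than on both WT arrays, and for Ifit2 the KO and WT arrays overlapped.

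The signed genotype difference, KO minus WT, was higher in stimulated than in unstimulated cells for 28 of 32 measured members, against 57.2% of genes. The median of this change was 0.42, against 0.06. A less negative difference counts as higher here, so the count does not say that the genotypes lay further apart. A test of that change called 0 members and 0% of genes (limma, lowest adjusted p 0.863), with Oasl2 (0.99, SE 0.27) and Sp100 (0.93, SE 0.27) at an unadjusted p under 0.05, against 2.56% of genes. The median of this change was 0.83 without either stimulated CD45High array. Without the stimulated KO CD25High array the median of this change was 0.12, with 12 of 32 members below 0. The difference between CD25High and CD45High cells was likewise called for 0 members and 0% of genes, with 0 members at an unadjusted p under 0.05. Its median was 0.37, 0.72 without either unstimulated CD25High array and -0.06 without the stimulated KO CD25High array. Without the array of stimulated KO CD25High cells, the genotype difference over the remaining 3 pairs had a median of -0.20, 26 of 32 members were below 0 and 0 were called by limma, with 11 at an unadjusted p under 0.05. Leaving out its WT partner gave the same values, since both remove 1 pair.

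Probes of the same gene did not always go the same way between genotypes. In stimulated cells Ifit3 differed by 0.57 (SE 0.43) at its brightest probe and by -0.73 (SE 0.27) at its second. Usp18 differed by 0.07 (SE 0.24) and, at its dimmer probe, by -1.41 (SE 0.49). Oas1g differed by 0.16 (SE 0.31) and -0.45 (SE 0.22), and Oasl2 by 0.32 (SE 0.19) and -0.25 (SE 0.15). None of these values passed limma's test (adjusted p of 0.349 or more). In stimulated cells the second probe of Oasl2 was detected on 0 KO and 0 WT arrays, and that of Oas1g on 0 KO and 2 WT arrays. Those of Ifit3 and Usp18 were detected on 1 KO and 2 WT arrays. On the stimulated KO CD25High array they read 4.28 and 4.20, under its lowest detected value of 5.02. The opposite signs rest in part on undetected values, and the sign of the genotype difference of these 4 genes in stimulated cells is not settled. Adar in stimulated cells, Ifi27, Ifit2 and Phf11 in unstimulated cells, and Oas1g and Oasl1 over 4 pairs also had probes of opposite sign. After stimulation every further measured probe of a called member had the sign of its brightest one.

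**Figure D4:**
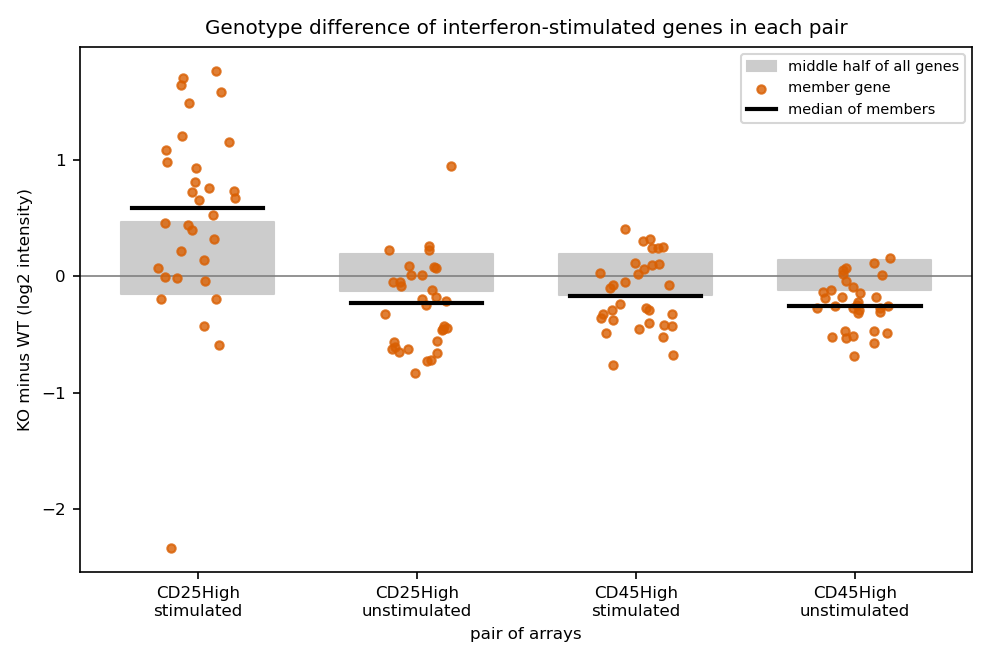
Difference of each measured member between KO and WT cells (log2 intensity, vertical axis) in the 4 pairs; circles are members, black bars their medians and grey boxes the middle of all genes from the lower to the upper quartile. The medians are 0.59 in stimulated CD25High, -0.23 in unstimulated CD25High, -0.17 in stimulated CD45High and -0.25 in unstimulated CD45High cells.

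Between the sorted populations 1 member was higher in CD25High cells, against 6.11% of genes, and 2 were lower, against 2.77% (limma). These shares are near those of all genes. Leaving out the stimulated KO pair gave 5 calls, with 1335 probes called in all. Leaving out any other pair gave 0, with 231 to 322 probes. In the order KO stimulated, WT stimulated, KO unstimulated and WT unstimulated, Samhd1 stood at 11.06, 10.92, 10.96 and 10.87 in CD25High cells, against 10.14, 10.12, 10.07 and 10.05 in CD45High cells. The difference was 0.86 (SE 0.11, adjusted p = 0.00951), which is 1.81-fold higher, and all CD25High arrays lay above all CD45High arrays. Oas2 stood at 6.89, 5.24, 7.74 and 8.17 in CD25High cells, against 7.21, 7.69, 9.47 and 9.41 in CD45High cells. Its difference was -1.44 (SE 0.33, adjusted p = 0.0478), lower in all 4 pairs, from -2.45 to -0.32, with overlap between the groups. Oasl2 stood at 6.65, 6.13, 6.65 and 7.48 in CD25High cells, against 7.22, 7.11, 7.63 and 8.14 in CD45High cells. Its difference was -0.80 (SE 0.13, adjusted p = 0.0192), from -0.98 to -0.57 over the pairs, again with overlap.

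With these 3 included, 8 members were lower in CD25High cells in every pair, against 17.8% of genes, and 3 were higher, against 18.5%. Ifit2 stood at 7.72, 6.74, 8.97 and 8.71 in CD25High cells, against 8.56, 8.46, 9.22 and 9.47 in CD45High cells, a difference of -0.89 (SE 0.24, adjusted p = 0.0734). Ddx58 stood at 5.41, 5.84, 6.73 and 7.46 in CD25High cells, against 6.70, 6.80, 7.43 and 7.62 in CD45High cells, a difference of -0.77 (SE 0.20, adjusted p = 0.0659). Ifit3 stood at 8.46, 6.97, 9.32 and 10.04 in CD25High cells, against 8.55, 8.91, 9.92 and 10.44 in CD45High cells, a difference of -0.76 (SE 0.30, adjusted p = 0.184), while its second probe gave -1.18 (SE 0.19, adjusted p = 0.0165). These 3 genes were lowest in stimulated CD25High cells. Adar, Oas1g and Usp18 had probes of opposite sign in this comparison, none past the threshold. The median of the 32 measured members was -0.11, against -0.01 for all genes.

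The marker sums also differ by population. The B cell list was 1216 to 1482 in CD25High cells, against 355 to 620 in CD45High cells, and the plasmacytoid dendritic list 402 to 785, against 300 to 368. Within the latter list, Tcf4, Irf8 and Ly6d were higher in CD25High cells in every pair. Siglech was higher only in the KO stimulated pair. In the order given above it stood at 5.67, 4.85, 4.67 and 4.53 (log2), against 5.45, 5.10, 5.30 and 5.37 in CD45High cells. The plasma cell list, with 1 of 5 genes detected and Sdc1, Igj and Prdm1 on no array, was 1043 to 1575, against 613 to 819. Their part in the members' differences was not tested. Of the further interferon-stimulated genes, Ifitm3 was 1.52 (SE 0.14), Ifitm2 1.25 (SE 0.17) and Tdrd7 0.71 (SE 0.12) higher in CD25High cells, and Slfn1, of the Schlafen family, was lower (-0.85, SE 0.14). Among the interferon gamma genes, Gbp3 was 2.49 (SE 0.15), the class II transactivator Ciita 0.97 (SE 0.14) and Gbp6 0.79 (SE 0.13) higher, and Ifngr1 was higher by 1.06 (SE 0.18).

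**Figure D5:**
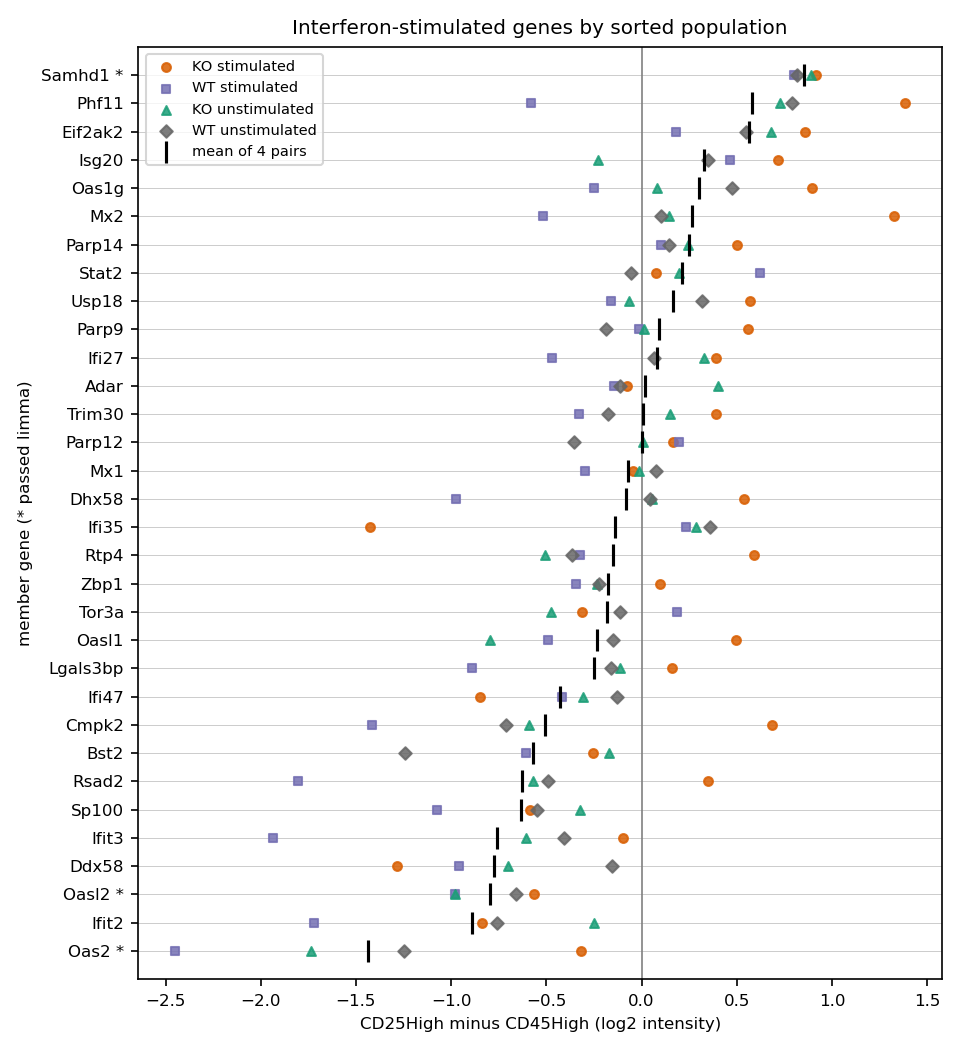
Difference of each measured member between CD25High and CD45High cells (log2 intensity, horizontal axis) in the 4 pairs (orange circles KO stimulated, violet squares WT stimulated, green triangles KO unstimulated, grey diamonds WT unstimulated; black bar, mean; asterisk, limma adjusted p under 0.05). Samhd1 is highest at 0.86 with its pairs close together, and Oas2 lowest at -1.44 with its pairs spread.

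Outside the 43 members, the genes whose log2 values followed the members' median most closely over the 8 arrays were LOC625360 (Pearson r = 0.996), 1810030N24Rik (0.988), Ppp3cc (0.984), 3830406C13Rik (0.984) and Deb1 (0.982). Ppp3cc encodes a catalytic subunit of calcineurin, and its values were 7.97, 7.41, 7.87 and 7.83 on the stimulated arrays, against 8.37, 8.43, 8.46 and 8.69 on the unstimulated ones, in the order KO CD25High, WT CD25High, KO CD45High and WT CD45High. These correlations describe 8 arrays that share the stimulation contrast, and carry no p.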

How the data were processed

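Messenger RNA was measured on 8 Illumina MouseRef-8 v2.0 arrays, 1 per combination of genotype, population and stimulation. The deposited non-normalized table gives, per the file headers, a mean bead intensity for each of 25697 probes and each array on a linear scale, with a bead standard error (a signal in the same unit), a count of beads and a detection p-value. The authors' deposited value table gives 14533 probes as log2 values, and the submitters' processing notes name limma, with a version not given in the sources used here. Its arrays correlated at 0.9999993 or above with the neqc values used here, and differed by at most 0.0626 log2.

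From the intensities, log2 values were made with neqc of limma 3.58.1 in R 4.3.3 (normexp from the detection p-values, offset 16, quantile normalization). The test took the 11047 probes (8196 genes) with 2 or more arrays at a detection p under 0.01. lmFit and eBayes gave the tests, with p-values adjusted over all probes (Benjamini-Hochberg), with calls at an adjusted p under 0.05. Matched combinations were blocks, from the factorial labels and not from shared animals, which left 3 residual degrees of freedom over 4 pairs and 2 within populations or states. A fold against arrays with no detection was taken against the lowest detected value and is given as at least. Symbols were matched through RefSeq's gene table (GRCm38.p6), where Cmpk2 is Tyki and Parp9 is BC003281 in the file. The fit was tested on simulated data.

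The members, gene lists and tests were chosen with earlier results of these data known. Named members are those called in any comparison and the 6 largest of the same sign in every pair, per comparison of 4 pairs and per genotype comparison within a state. From other lists up to 6 signalling genes and 4 of each other list are named. A few further genes were named after their values were seen. Alternatives covered background, normalization, the deposited values, filters, probe summary, variance trend, array weights, the block and each array left out.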

Additional observations from a re-analysis of the deposited data

How the results depend on the processing

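In the 6 comparisons with named members, 0 of their called values reversed in any alternative run. Each named value had the same sign in every pair. Leaving out an array drops a pair, so in those runs no reversal was possible and the 0 carries no information. Of these members, 520 values under processing alternatives stayed on their side of the threshold, 24 lost the call and 4 gained it. When arrays were left out, 254 stayed, 136 lost the call and 10 gained it. Of the counts of called members, stimulation over 4 pairs (17) moved to 9 with no filter. Stimulation in CD25High cells (9) moved to 2 with no filter and to 16 with the mean over a gene's probes. Stimulation in CD45High cells (0) moved to 2 with an offset of 50, with detection on all 8 arrays and with an intensity trend, to 4 with no background correction and to 5 with the mean over probes. The population count (3) moved to 5 with the mean over probes and to 7 with array weights. The genotype count in stimulated cells (0) moved to 1 with median scaling, with 518 probes called in all, against 0. The causes were not tested. Cyclic loess, the deposited values, a detection p of 0.05 on 1 array and a model with no pair block moved no count by over 1.5 times, the last run over 4 pairs only.

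Leaving out each array in turn gave 0 to 25 calls for stimulation over 4 pairs, 0 to 22 in CD25High cells, 0 to 24 in CD45High cells and 0 to 8 for the difference between them. It gave 0 to 5 calls for the population, 0 to 17 for genotype in stimulated cells, 0 to 17 for its change with stimulation and 0 to 14 for its difference between populations, while genotype over 4 pairs and in unstimulated cells stayed at 0. Such a fit within a population or state leaves 1 pair in an arm, which is assumed to vary like the others. The 0 calls for the population came without either unstimulated CD25High array, either unstimulated CD45High array or either stimulated WT array. The labels give no chip, so a chip block was not run. Without the pair block, stimulation over 4 pairs gave 18 calls, the population 3 and genotype 0. The labels give no replicate numbers, so no replicate block was fitted. Signal near background limits Mx1, Parp9, Parp12 and Tor3a, and 11 members without a measured probe have no value.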
